A study of Macaca fascicularis with 6 samples.

Results

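Background and calcium-activated potassium channels of the left ventricle were followed through 9 genes: the background channels KCNK1 and KCNK3, the small-conductance calcium-activated channels KCNN2 and KCNN3, the large-conductance calcium-activated channel KCNMA1 with its β subunits KCNMB1 and KCNMB4, and the β subunits of voltage-gated channels KCNAB1 and KCNAB2. The members were the probe sets of the array whose design names one of these genes, or whose annotation symbol does where the design gives no name. This gave 27 of the 52706 probe sets that are not controls, for 9 of 21496 named genes. All but 1 of the 27, a probe set of KCNMA1, were named by the design.

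Left ventricular free wall of male cynomolgus monkeys aged 4 to 6 years was profiled with Rhesus Macaque Genome Arrays (Affymetrix), 1 for each animal. The chronic atrioventricular block group held 2 animals (animals 2 and 8), taken 8 months after catheter ablation of the atrioventricular node, and the intact group held 4 animals without ablation (animals 11, 12, 13 and 14). Of 10 operated animals, those 2 were chosen because they had developed torsade de pointes most often, at least 3 times, under repeated oral challenges with dl-sotalol, which blocks β-adrenoceptors and lengthens repolarization. They had also received vehicle and moxifloxacin, so the block, the drug exposure and the arrhythmia cannot be told apart. The specimens were whole tissue, in which fewer cells of a type and less RNA per cell cannot be told apart either.

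Potassium channels carry the outward current that sets the resting potential and ends the action potential. Tandem-pore (KCNK) channels conduct at all voltages and hold the membrane near rest. Small-conductance channels open when calcium binds the calmodulin attached to them, and large-conductance channels, known above all from smooth muscle, open with calcium and depolarization together. Kvβ subunits are cytoplasmic proteins that join voltage-gated pores and can speed their inactivation.

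A value is a scaled signal throughout: the array's MAS5 signal on a linear scale, multiplied so that all arrays share the same 2% trimmed mean. Before scaling that mean was 54.6 and 73.5 in the block hearts, and 75.1 to 88.2 in the intact hearts, so animal 2 had the dimmest array. The software called each probe set Present, Marginal or Absent from a detection p, and no Present call on these arrays had a p above 0.0498. The share of probe sets called Present was 36.0% and 39.7% in the block hearts and 37.2% to 39.2% in the intact hearts. The signal toward the 3′ end of GAPDH over that toward its 5′ end, a sign of RNA integrity, was 5.05 and 3.05 in the block hearts, against 2.17 to 2.65 in the intact hearts (p = 0.0667 by a 2-sided exact permutation test, below which 15 splits of 6 arrays cannot go). For ACTB the same ratio overlapped, at 11.6 and 8.98 in the block hearts and 7.85 to 10.9 in the intact hearts (exact permutation p = 0.333). The part of RNA integrity in the results below was not tested. Of the ventricular cardiomyocyte markers, all 8 on the array were Present in all 6 hearts (MYH7, MYL2 and TNNI3 among them).

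Expression of these channels was near or below the limit of detection in most probe sets. Of the 27 probe sets, 12 were not Present on any array and 4 were Present on all 6, namely that of KCNN2 and 3 of KCNAB1. The number Present was 6 and 10 of 27 in the block hearts, and 6 to 11 of 27 in the intact hearts. A probe set was tested where it was Present on at least 2 arrays. That held for 9 probe sets of 6 genes, with 4 for KCNAB1 and 1 each for KCNK1, KCNK3, KCNN2, KCNMB4 and KCNAB2. KCNN3, KCNMA1 and KCNMB1 had no probe set that could be tested.

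By limma with Benjamini-Hochberg adjustment over all 22577 probe sets tested, 0 of the 9 passed an adjusted p of 0.05, beside 5 of the whole array (0.0221%). At an unadjusted p under 0.05 there was 1 of the 9, that of KCNK3, which was lower in the block hearts. Of all probe sets tested, 8.24% lay under that limit and 4.62% were also lower. Of the 9, 4 were lower and 5 higher in the block hearts, with a median log2 fold change of 0.04 beside -0.00 over all probe sets tested. Both block hearts lay below all intact hearts in 1 of the 9 (background 9.48%) and above all of them in 1 (background 8.61%). These shares are near the background.

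**Figure D1:**
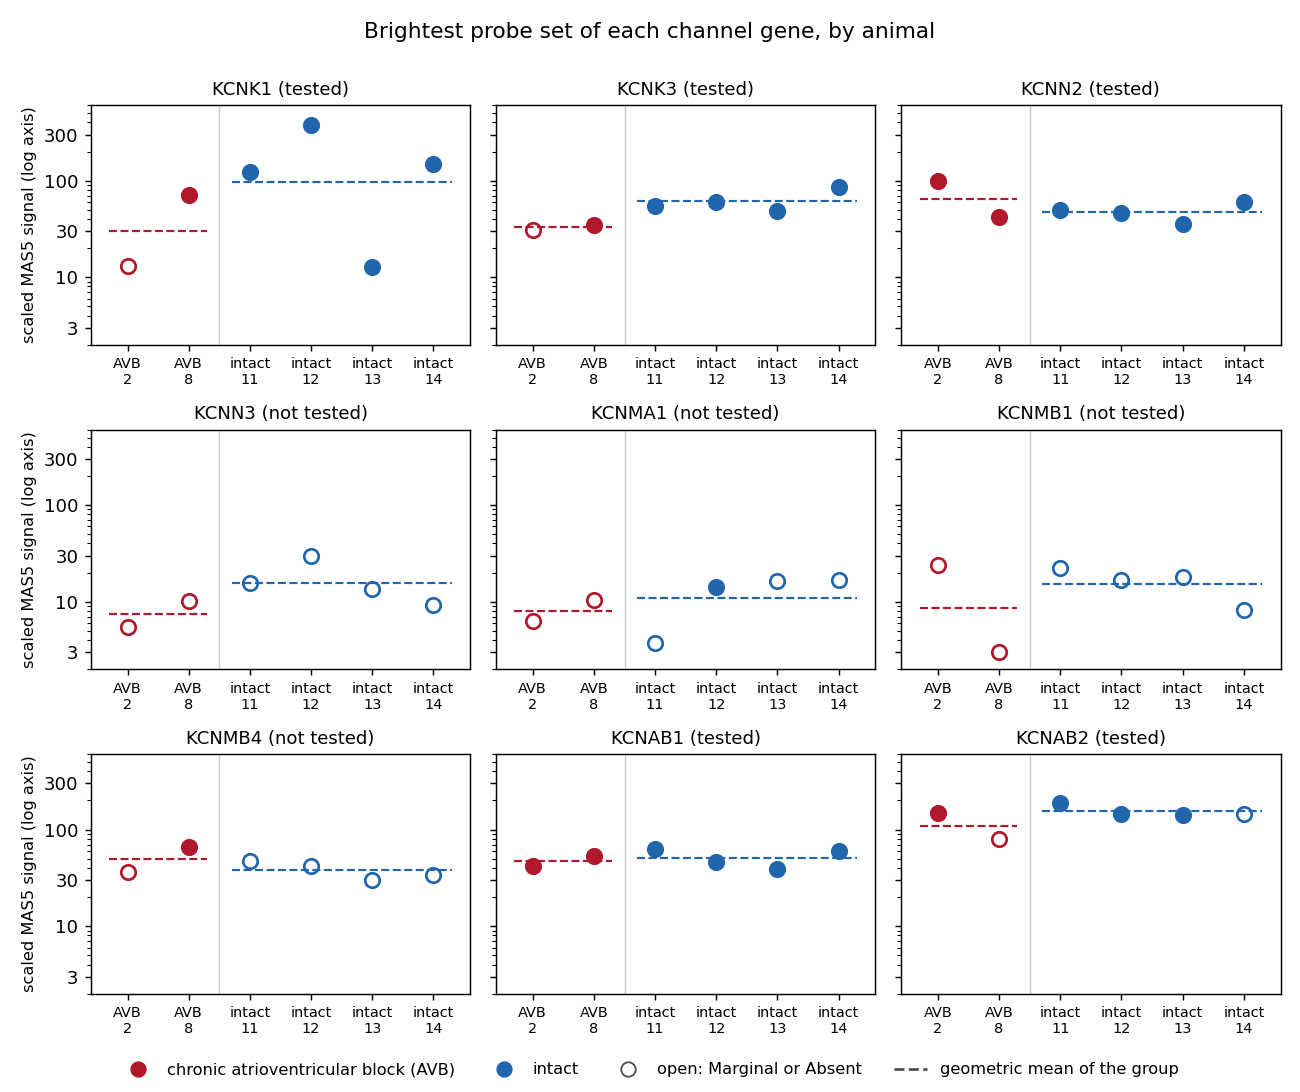
Scaled MAS5 signal (log axis) of the brightest probe set of each of the 9 genes in the 2 chronic atrioventricular block hearts (AVB, red) and the 4 intact hearts (blue), with filled points Present, open points Marginal or Absent, and the dashed line at the geometric mean of the group. KCNK3 is the gene whose block hearts, at 31.0 and 34.5, lie below all intact hearts, while KCNK1 is spread from 12.8 to 380.2 within the intact group.

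KCNK3 encodes TASK-1, an acid-sensitive background channel that in the human heart is known mainly from the atria. Its brightest probe set (chromosome 13, 26675845 to 26676444, + strand of the rhesus build Mmul_051212) gave signals of 31.0 and 34.5 in block animals 2 and 8. The intact animals 11, 12, 13 and 14 gave 55.2, 60.6, 48.2 and 85.9. The groups did not overlap, and the lowest intact heart was animal 13. The mean was 32.8 ± 2.51 in the block hearts and 62.5 ± 16.4 in the intact hearts (SD, n = 2 and 4), and the fold of the geometric means was 0.536 (95% interval 0.344 to 0.835, from the limma fit on the log2 scale). All folds given here are of geometric means.

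The log2 fold change of KCNK3 was -0.90 (SE 0.282) with an unadjusted p of 0.0112 in limma, and the adjusted p over all probe sets was 0.468, so the difference did not pass the test. An exact permutation test of the 6 values gave p = 0.0667 (2-sided), the smallest value the design allows. Each block heart was lower than the geometric mean of the intact hearts, at 0.508 times in animal 2 and 0.566 times in animal 8. The signal was dim. Its detection p was 0.0562 (Marginal) and 0.0376 in the block hearts, and 0.0142 to 0.0461 in the intact hearts, all close to the limit of a Present call.

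The other KCNK3 probe sets align poorly to the rhesus build, with a match of 39.21% and 32.25%, and were not tested. The first of them was Absent on all arrays, at 20.3 and 28.3 in the block hearts and 8.38, 33.6, 42.9 and 38.2 in the intact hearts, with overlapping groups. The second was at 2.23 and 4.14 in the block hearts, against 33.0, 24.6, 33.3 and 19.8 in the intact hearts, where only animal 11 was Present. There the groups were again apart, but the block hearts were below detection and no fold is given.

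KCNK1 encodes TWIK-1, a background channel with a weak current of its own. Its brightest probe set (chromosome 1, 223313829 to 223314333, - strand) gave 13.0 and 71.0 in block animals 2 and 8. The intact animals 11, 12, 13 and 14 gave 124, 380, 12.8 and 148. Intact animal 13 was as low as block animal 2, so the groups overlapped, although animal 13 was called Present and animal 2 Absent. The highest intact value was 29.7 times the lowest. The spread of the log2 signal among the intact hearts was larger than in 99.7% of the probe sets tested.

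The mean of KCNK1 was 42.0 ± 41.0 in the block hearts and 166 ± 154 in the intact hearts (SD, n = 2 and 4). The log2 fold change was -1.68 (SE 1.18, 95% interval -4.35 to 0.99), with an adjusted p of 0.747 by limma. The estimate rested on few hearts: it was -0.45 without animal 2, -2.90 without animal 8 (leaving a block value below detection, so that no exact size can be read), -1.02 without animal 12 and -2.65 without animal 13. The adjusted p lay between 0.620 and 1 over the alternatives.

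A neighbouring KCNK1 probe set (223314479 to 223319049, match 99.83%) was Present only in animal 12 and was not tested. It gave 1.38 and 34.6 in the block hearts, and 26.5, 97.1, 14.4 and 66.1 in the intact hearts. Animal 12 was the brightest on both probe sets, and the other hearts lay below detection on this one, so their order there is not read. The remaining probe set (match 49.55%) was Absent throughout, with signals between 0.853 and 1.38.

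KCNK1 is known in the human heart mainly from the atria, and the signals of atrial marker genes also varied between these hearts. Of 7 atrial cardiomyocyte markers on the array, 6 were tested (3 higher and 3 lower in the block hearts, 0 past the adjusted test), and BMP10 was not Present on any array. Their summed signal was 6690 to 12431 in the block hearts and 5861 to 10734 in the intact hearts. Most of that sum was MYL7 in every heart but block animal 8, where NPPA was larger than MYL7. The markers did not move one way. MYL7 was at 10608 and 2282 in block animals 2 and 8, against 5237 to 8589 in the intact hearts. MYL4 was at 99.7 and 66.8, against 73.8 to 240 (log2 fold change -0.54 for both genes). SLN was at 682 and 877 in the block hearts, against 2.83 to 296 in the intact hearts. NPPA was at 441 and 2797, against 46.3 to 812 (log2 fold change 2.56). The groups overlapped for MYL7, MYL4 and NPPA. MYL7 and MYL4 were Present on all 6 arrays and SLN on 4. Which cells gave the signals of these markers, and their part in the KCNK1 result, was not tested.

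**Figure D2:**
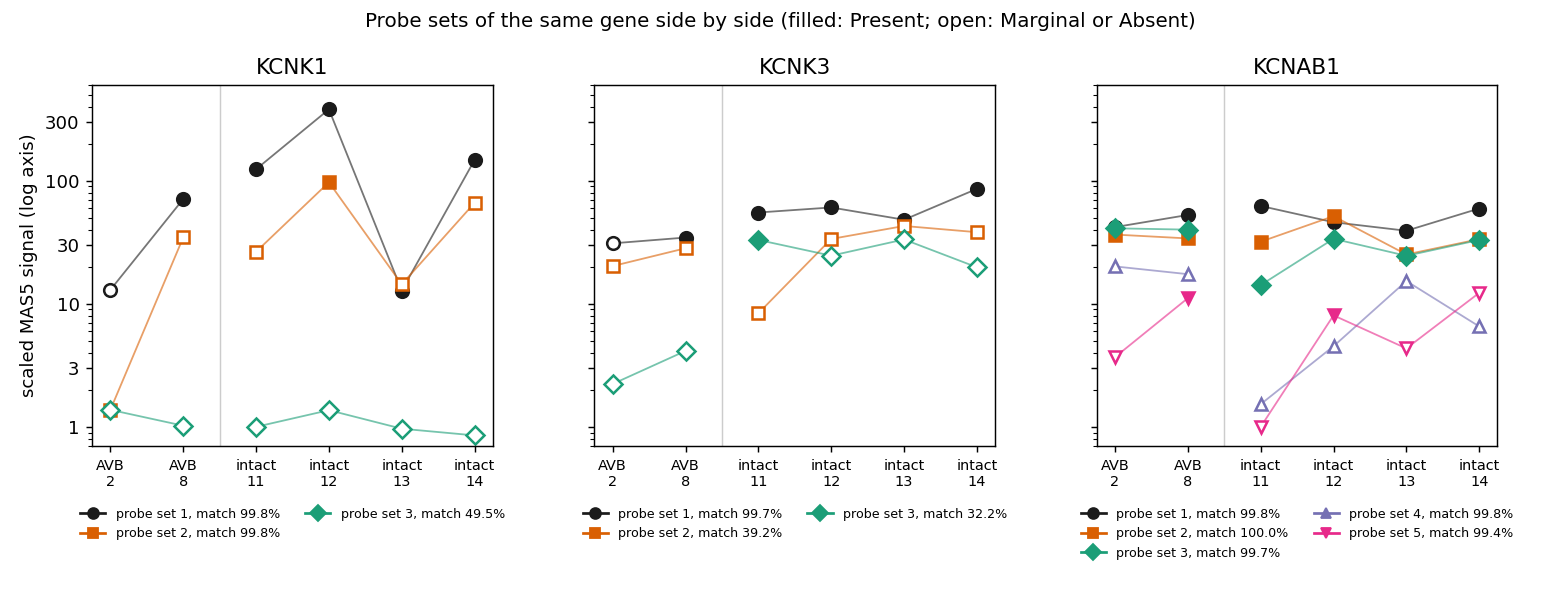
Scaled MAS5 signal (log axis) of every probe set of KCNK1, KCNK3 and KCNAB1 in the 2 block hearts (left of the grey line) and the 4 intact hearts, with filled points Present, open points Marginal or Absent, and the alignment match of each probe set in the key. Animal 12 is the brightest on KCNK1 probe sets 1 and 2, at 380.2 and 97.1, and the KCNAB1 probe sets Present throughout lie between 14.2 and 62.4.

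KCNN2 encodes SK2, a small-conductance calcium-activated channel that is expressed in atrial and, less, in ventricular myocytes. Its only probe set (chromosome 6, 110795384 to 110795895, + strand) was Present on all 6 arrays, with a detection p of at most 0.00114. The signals were 97.9 and 41.9 in block animals 2 and 8, against 49.1, 46.3, 35.9 and 60.0 in the intact animals 11, 12, 13 and 14. Animal 2 was the brightest of all, and animal 8 lay within the intact range.

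The mean of KCNN2 was 69.9 ± 39.6 in the block hearts and 47.8 ± 9.90 in the intact hearts (SD, n = 2 and 4). The log2 fold change of 0.45 (SE 0.363, 95% interval -0.38 to 1.27) had an adjusted p of 0.778 by limma. Without animal 2 it was -0.17, and without animal 8 it was 1.06, so its direction depended on which block heart was kept.

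KCNN3 encodes SK3, a relative of SK2 found in neurons and endothelium as well as heart. It had 2 probe sets and 0 Present calls in 12 measurements. The signals were 2.92 to 10.2 in the block hearts and 4.36 to 29.7 in the intact hearts. The brighter of the 2 had no alignment in the annotation, and the other (chromosome 1, 133246472 to 133247262, match 100.0%) was Absent on every array, so no fold is given.

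KCNMA1 encodes the pore of the large-conductance calcium-activated channel, which is prominent in vascular smooth muscle. Its 4 probe sets gave 2 Present calls in 24 measurements, both in intact hearts (animals 11 and 12) on different probe sets. Signals were at most 10.3 in the block hearts and at most 16.9 in the intact hearts. On the probe set that spans chromosome 9 from 60159921 to 60163199, the block hearts were at 1.38 and 1.13 and the intact hearts at 7.56, 4.26, 9.31 and 5.03. These values did not overlap, but only animal 11 was Present, and the probe set was not tested.

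KCNMB1, the β1 subunit that raises the calcium sensitivity of the same channel in smooth muscle, had 0 Present calls in 12 measurements. Its signals were 3.01 to 23.9 in the block hearts and 4.59 to 22.1 in the intact hearts, and no probe set reached a match of 98%. Smooth muscle itself was measured in these specimens. Of 7 smooth muscle markers on the array, 5 were Present on all 6 arrays (MYH11 and ACTA2 among the defining ones, while CNN1 was Present on 1). The summed signal of the list was 2139 and 2266 in the block hearts and 1326 to 1960 in the intact hearts (exact permutation test, 2-sided p = 0.133). Of 6 tested markers, 4 were higher and 2 lower in the block hearts, 0 past the adjusted test. Their part in the signals of KCNMA1 and KCNMB1 was not tested.

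KCNMB4 encodes the β4 subunit, known best from neurons. Its tested probe set (chromosome 11, 67369677 to 67369986, + strand) was Present in both block hearts, at 21.2 and 23.7. The intact animals 11 and 12 were Present at 22.1 and 21.7, and animals 13 and 14 Absent at 13.5 and 2.25. The highest intact values lay within the range of the block hearts. The log2 fold change of 1.03 (SE 0.878, 95% interval -0.97 to 3.02) had an adjusted p of 0.789 by limma, and the intact spread exceeded that of 98.4% of probe sets tested. Because animal 14 was below detection, the size of this difference rests on a value that has only an upper bound.

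The brightest KCNMB4 probe set, which overlaps the tested one (67369272 to 67369777), was Present only in block animal 8. It gave 36.3 and 66.4 in the block hearts, and 47.8, 41.6, 30.3 and 33.9 in the intact hearts. The probe set with a match of 51.84% lay at 35.7 and 39.4 in the block hearts, above 24.3, 34.8, 19.1 and 28.7 in the intact hearts, again Present only in animal 8. That with a match of 24.91% was Absent throughout and overlapped. In all, 4 of 8 measurements were Present in the block hearts, most of them in animal 8, and 2 of 16 in the intact hearts. Over all probe sets the Present share was 36.0% and 39.7% in the block hearts and 37.2% to 39.2% in the intact hearts. Probe sets of a gene in the same heart are not replicates, so these counts were not compared.

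KCNAB1 encodes Kvβ1, a subunit that gives fast inactivation to voltage-gated pores. Over its 5 probe sets, 20 of 30 measurements were Present. The brightest probe set (chromosome 2, 131125684 to 131131050, - strand) gave 42.0 and 52.7 in block animals 2 and 8, against 62.4, 46.0, 39.2 and 59.5 in the intact animals. The block values fell inside the intact range. The means were 47.3 ± 7.58 and 51.8 ± 11.0 (SD; block, n = 2; intact, n = 4), with a log2 fold change of -0.11 (SE 0.276, 95% interval -0.74 to 0.51) and an adjusted p of 0.935 by limma.

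A KCNAB1 probe set whose target overlaps that one (131125793 to 131131050) gave 41.1 and 40.0 in the block hearts, above 14.2, 33.7, 24.6 and 33.0 in the intact hearts. The groups did not overlap, yet the log2 fold change of 0.70 (SE 0.394) had an adjusted p of 0.676 by limma and the detection p reached 0.0461. The probe set from 131124085 to 131124642 was Present throughout, at 36.5 and 34.0 in the block hearts, and 31.9, 51.5, 25.2 and 33.5 in the intact hearts (log2 fold change 0.04, limma adjusted p = 0.981). The remaining pair was dim. Its first (131124445 to 131125104) was tested, Present in animals 8 and 12 alone, with a log2 fold change of 0.49 (SE 1.15). Its second (131199461 to 131200325), was Absent on all arrays.

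KCNAB2 encodes Kvβ2, which shares the pore partners of Kvβ1. Its brightest probe set (chromosome 1, 9100507 to 9101061, + strand) gave 148 and 79.7 in block animals 2 and 8, against 189, 146, 143 and 144 in the intact animals 11, 12, 13 and 14. Animal 8 was below all others and was called Absent, as was intact animal 14 at a signal like that of the Present animals 12 and 13. The mean was 114 ± 48.1 in the block hearts and 155 ± 22.2 in the intact hearts (SD, n = 2 and 4). The log2 fold change of -0.51 (SE 0.268, 95% interval -1.12 to 0.10) had an adjusted p of 0.659 by limma. It was -0.06 without animal 8 and -0.95 without animal 2. The other KCNAB2 probe sets were Absent on all arrays.

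**Figure D3:**
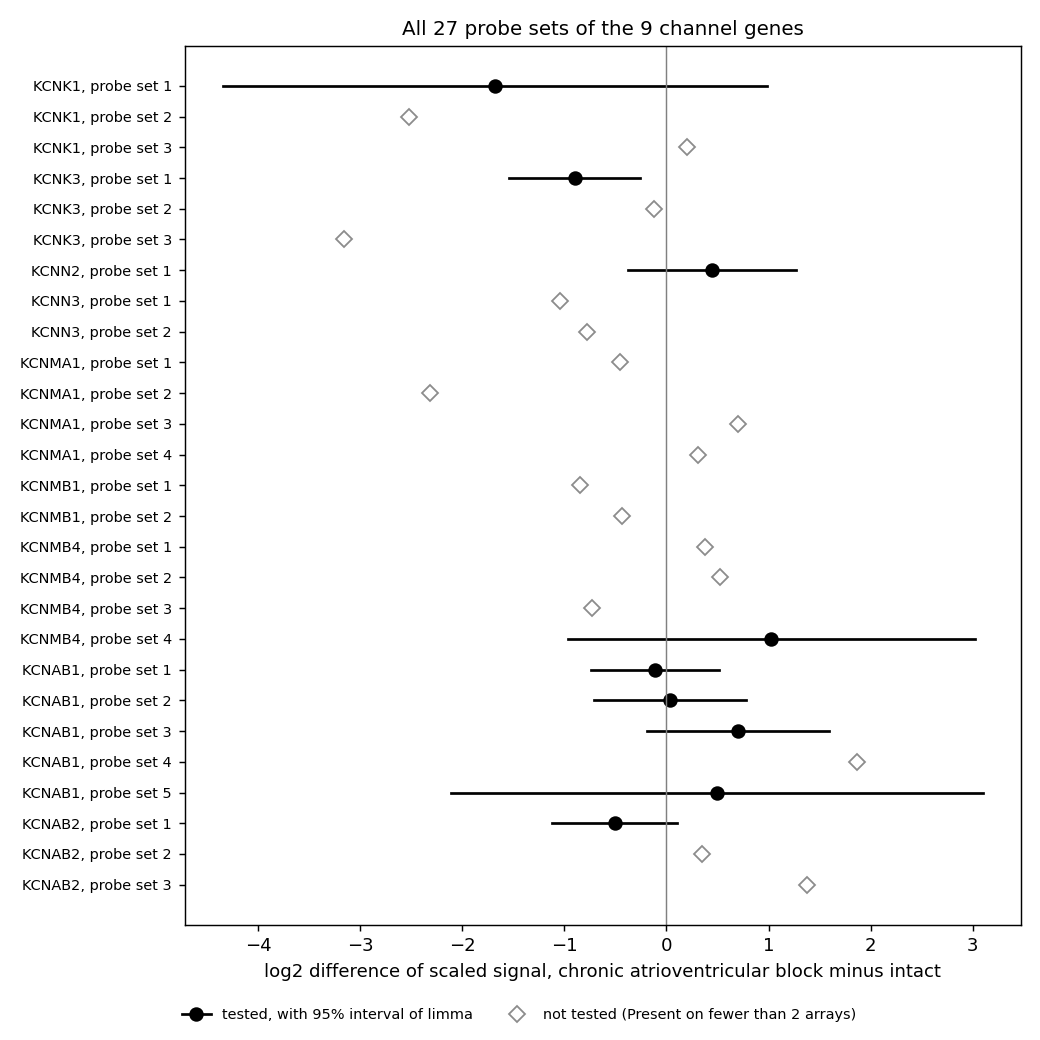
Log2 difference of scaled signal, chronic atrioventricular block minus intact, of the 27 probe sets, numbered by brightness within a gene. Black points are the 9 tested probe sets with the 95% interval of limma, open diamonds the 18 that were Present on fewer than 2 arrays. The interval of KCNK3 probe set 1, from -1.54 to -0.26, is the only one of the 9 that leaves out 0.

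The width of these intervals shows what the arrays could tell. The narrowest were those of KCNAB2, KCNAB1 probe set 1 and KCNK3, whose log2 fold changes had SEs of 0.268, 0.276 and 0.282, and the widest those of KCNK1 and KCNAB1 probe set 5, with 1.18 and 1.15. The interval of KCNAB1 probe set 1 reached folds of 0.599 and 1.43, so a change of that size in either direction could not be told from none. For KCNN2 it reached 0.770 and 2.41.

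Detection was also counted by the alignment of the probe sets to the rhesus genome, without a test. Of the 18 probe sets with a match of at least 98%, 12 were Present on at least 1 array and 9 were tested. Of the 8 with a lower match (24.91% to 94.18%), 3 were Present somewhere and 0 were tested. The array was designed on rhesus sequence and, in part, on targets of a human array, and was hybridized here with cynomolgus RNA. Among the 18 untested probe sets, 6 of 108 measurements were Present. Their block hearts lay below all intact hearts in 2 and above all of them in 3, and without the filter these shares were 7.98% and 8.04% of all probe sets.

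**Figure D4:**
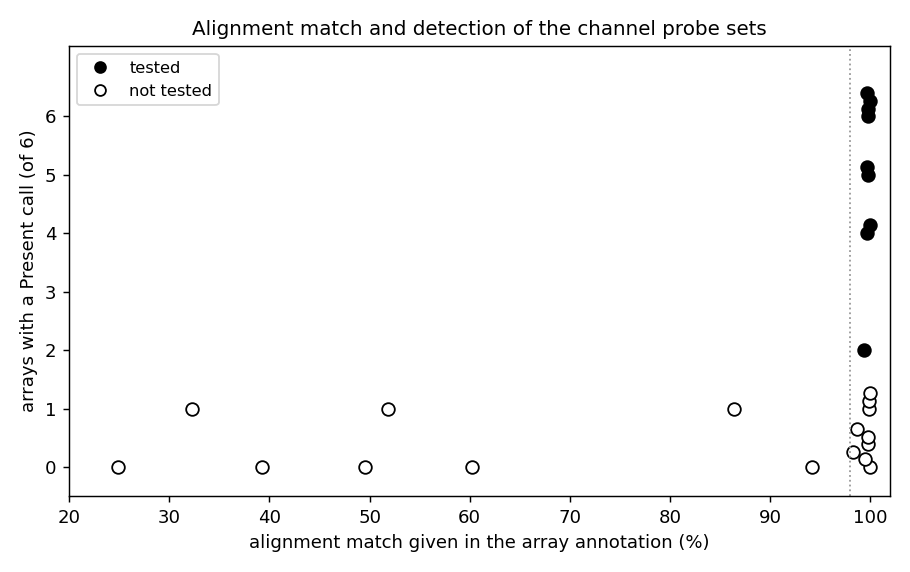
Number of arrays (of 6) with a Present call against the alignment match of the array annotation (%), for the channel probe sets that have an alignment. Filled points were tested, points with the same count are shifted upward slightly, and all 9 tested probe sets lie right of the dotted line at 98%.

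The other subunits of these channel families were measured beside the members. Of 23 such genes, 20 were on the array and 6 had a tested probe set. The brightest tested one of each gene was read, with 3 higher and 3 lower in the block hearts. Of these, 0 passed the adjusted test and 0 had an unadjusted p under 0.05 (median log2 fold change 0.11, beside -0.00 over all probe sets tested). KCNMB2, the inactivating β2 subunit of the large-conductance channel, was at 179 and 267 in block animals 2 and 8, and 117, 175, 100.2 and 245 in the intact animals. Its groups overlapped (fold 1.46, limma adjusted p = 0.723). KCNK6, KCNT1 and KCNK4 had folds of 0.817, 1.19 and 1.16, with limma adjusted p of 0.931, 0.902 and 0.874.

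Of the 8 Kv1 pores that Kvβ subunits can join, 2 were tested, and they were chosen for naming after their values were seen. KCNA5, the pore of the ultrarapid delayed rectifier current of the atrium, was at 66.7 and 73.2 in the block hearts and at 48.2, 106, 103 and 117 in the intact hearts (limma adjusted p = 0.824). KCNA3 had a fold of 1.29 (limma adjusted p = 0.877).

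Proteins that bind these channels or bring them calcium were read beside them. Of 15 such genes, 14 were tested, 9 higher and 5 lower in the block hearts, 0 past the adjusted test (median log2 fold change 0.15, beside -0.00 over all probe sets tested). At an unadjusted p under 0.05, 5 were higher, where 3.62% of all probe sets tested were, and the same 5 had both block hearts above all intact hearts, where 8.61% did. PRKG1, a kinase that opens large-conductance channels in smooth muscle, was at 636 and 568 in block animals 2 and 8, and 403, 456, 400.1 and 349 in the intact animals (log2 fold change 0.59, limma adjusted p = 0.428). CALM2, a gene for the calmodulin that gates small-conductance channels, was at 49.5 and 46.9 in the block hearts, and 33.3, 22.0, 23.6 and 24.9 in the intact hearts (fold 1.88, limma adjusted p = 0.472). CAV1, a caveolar coat protein, and S100A10, a partner of KCNK3 at the membrane, were also among them, with folds of 1.38 and 1.34, and were named after their values were seen. CACNA1C and CACNA1D, the L-type calcium channel pores, were Present on 3 and 2 of the 6 arrays and their groups overlapped (limma adjusted p = 0.750 and 0.708). CACNA1D was Absent in all intact hearts, so no fold is given. Markers of other cells were read beside these proteins, and not all moved. The smooth muscle sum of both block hearts lay above all intact hearts, as given above. Of its markers, MYH11 and LMOD1 were lower (log2 fold change -0.40 and -0.30). All 7 macrophage markers were higher in the block hearts (median log2 fold change 0.60, 0 past the adjusted test). Their summed signal was 636 and 1237 in block animals 2 and 8 and 489 to 698 in the intact hearts. Only animal 8 lay above the intact range. The endothelial, pericyte and fibroblast sums overlapped between the groups (log2 fold change -0.02, 0.09 and 0.09). The part of these cell types in these results was not tested.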

How the data were processed

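The authors hybridized RNA from 1 heart per array and extracted the signals by MAS5, the algorithm named in the submitters' processing notes without a version. The deposited table holds, per probe set and array, a signal (linear intensity), a detection call, a detection p-value and the authors' normalized value (log2, centred per array and per probe set). A second deposited table of the same intensity values and 6 columns of the first were not used. Intensity was scaled to a common 2% trimmed mean per array (2% removed at each end, over all 52864 probe sets, controls included), and log2 was taken. The 158 controls were then left out of the tests, which leaves 52706 probe sets. Coordinates are those of the array annotation.

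Probe sets Present on at least 2 of 6 arrays entered a 2-sided comparison by lmFit and eBayes with a variance trend (limma 3.58.1, R 4.3.3), adjusted after Benjamini-Hochberg over all 22577 of them, at a threshold of 0.05. Single values were compared by the exact permutation test over 15 splits. Python 3.11.15 with pandas 2.3.3 and matplotlib 3.10.9 handled tables and plots. The limma fit was also run on data simulated from the means and spreads of these arrays, with the outcome not given here. With 2 and 4 animals, the number of arrays limits the precision. Each sample was a separate animal.

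Named were all probe sets of the members, up to 4 genes with the largest change from each list of relatives and partners, and the defining markers of cell type lists. Outside this rule, NPPA, BMP10 and LMOD1 were also named, as were CAV1 and S100A10 after their values were seen. The values of 1 gene of these lists are not reported here. The members and lists were chosen with earlier results of these data known. As alternatives, the arrays were scaled by quantiles, by the upper quartile, by the median of always-Present probe sets or as in the authors' own log2 columns. Others were an added offset of 32, a signal floor of 100, other filters, other eBayes settings, array weights, other choices of probe set, and leaving out each animal in turn.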

Additional observations from a re-analysis of the deposited data

Results flagged for a closer look

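In 5 of the 27 probe sets, 1 of the 4 intact hearts stood apart from the other 3 by Dixon's criterion (the gap to the nearest heart over the whole range of the group, on log2 signals, against its 95% critical value), and in each of the 5 it was animal 11. Chance marks about 1 in 20 groups. Over all 52706 probe sets, 7.40% had an intact heart apart in this way, and 1.96% had animal 11 apart. Animal 11 was the highest for the brightest KCNAB2 probe set, at 188.6 against 142.9 to 146.2 in the other intact hearts (ratio 0.917), and was called Present. It was the lowest for the brightest KCNMA1 probe set, at 3.71 against 14.2 to 16.9 (0.889), and for the dimmest KCNMA1 probe set, below 2.40 to 2.81 in the others (0.847). It was also the lowest for the KCNK3 probe set with a match of 39.21%, at 8.38 against 33.6 to 42.9 (0.851), and for the KCNN3 probe set on chromosome 1, at 4.36 against 10.1 to 11.8 (0.838). Animal 11 was called Absent on these 4 probe sets, so the low values lie below the limit of detection.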

How the results depend on the processing

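No member probe set was called under any of the 18 alternatives run for that count, the lowest adjusted p by limma being 0.266, with no filter. Of the alternatives that can move the fold of the brightest probe set, KCNK1 was lower in the block hearts under 14 of 14, between -2.90 and -0.45 on the log2 scale. KCNK3 was lower under the 13 that were counted for it, between -1.01 and -0.53. The signal floor of 100 was not counted for KCNK3. All its values on the brightest probe set, 31.0 to 85.9, lay below that floor, which leaves no difference between the groups. Over the other alternatives on that probe set the adjusted p of KCNK3 lay between 0.466 and 0.791. Among the tested brightest probe sets, leaving out 1 animal turned KCNN2 (range -0.17 to 1.06) and KCNAB1 (-0.28 to 0.0514), each without animal 2. The brightest probe sets of KCNMB1 and KCNMB4, which were not tested, also turned, each without animal 8. KCNAB1 also changed direction as the mean of all its probe sets (0.60), as did KCNAB2 (0.41). KCNK3 kept its direction on that mean, at -1.39 (limma adjusted p = 0.356). These means include probe sets that were Absent throughout, and for KCNK3 also poorly aligned ones.

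Over the whole array, the 5 calls became 0 with quantile normalization, with the authors' normalized columns, without the variance trend and with array weights, and 8 with an offset of 32. Leaving out 1 animal gave 0 to 4 calls (0 without animal 2, 11, 12 or 13, 2 without animal 14, and 4 without animal 8). The cause was not tested. No paired analysis was possible because the animal numbers of the groups are all different. Most of these genes lie near the limit of detection, which limits any statement on their level.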
